A study of Homo sapiens with 18 samples.

Results

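Transcript levels of 10 genes of the TGF-beta pathway were followed through 6 groups of A375 cells, an established human melanoma line. Per the labels it came from ATCC and was kept in DMEM plus fetal bovine serum. The genes were the rows of the deposited count table, which held 58721 genes, for the ligands TGFB1 and INHBA, the latency proteins LTBP1 and LTBP2, the receptors TGFBR1 and TGFBR2, the signal carrier SMAD3 and the response genes SMAD7, SKIL and PMEPA1. They were picked by name, with earlier results of these data known. All 10 passed the filter on low counts, and the lowest count of any of them in any library was 98, for LTBP2. The control group carried a guide RNA against GFP, which is foreign to these cells. The control with SOX10 carried that guide and overexpressed SOX10, a transcription factor of the melanocyte lineage. TADA2B, a subunit of the SAGA chromatin complex, was knocked out with guide 1 or guide 2, and each knockout line was profiled without and with SOX10 overexpression. Each of the 6 groups had 3 libraries. All groups share the A375 background and a guide RNA, and the labels do not say whether a line is 1 clone or a pool, nor whether the libraries of a group are separate cultures. What the p-values measure is thus the spread among these libraries, which may be technical.

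As background, TGF-beta is secreted in a latent form, wrapped in its own propeptide and tethered to the matrix by latent TGF-beta binding proteins, and integrins or proteases release it. The released ligand binds the type II receptor TGFBR2, which activates the type I receptor TGFBR1, and this kinase phosphorylates SMAD2 and SMAD3. Together with SMAD4 these enter the nucleus and switch on genes that include their own brakes, among them SMAD7, SKIL and PMEPA1. Activins, such as the dimer of INHBA products, feed the same SMADs through other receptors. In melanoma the pathway is known for high ligand production by the tumour cells and for its link to the dedifferentiated, drug-tolerant state with low SOX10.

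Total counts ran from 58573910 to 79874237 per library. TADA2B transcript was lower in both knockout lines, at 26.0 ± 0.402 and 28.8 ± 1.37 CPM (a count scaled to a common library size; mean ± SD, n = 3, guide 1 and guide 2) against 32.5 ± 0.318 in control. SOX10 stood at 354 CPM in control, 452 in control with SOX10, 83.6 and 43.4 in the knockout lines, and 291 and 246 in these lines with SOX10 (means, n = 3). Guide 2 replicate 2 stood apart from the rest of its group, with a chi-square per degree of freedom of 11.8 and 10.4 against the other libraries and 4.60 between those. The melanoma markers CSPG4, MCAM and PRAME were present in every library, while TYR, a pigment enzyme, stayed at or near 0. The summed level of 13 melanoma or melanocyte markers was 997 to 1029 CPM in control and 533 to 634 CPM in the knockout lines. It was 1451 to 1465 CPM in control with SOX10 and 881 to 1053 CPM in knockout with SOX10. SOX10 itself, given above, is 1 of these markers. MITF went the other way in the knockout lines, at 84.3 and 92.1 CPM against 39.7 CPM in control (means). PMEL and TYRP1 were also higher there, below 1 CPM, and the other markers had lower means than in control. The summed level of 11 fibroblast markers was 8.25 to 10.6 CPM in control and 43.5 to 53.2 CPM in the knockout lines. It was 17.2 to 18.4 CPM in control with SOX10 and 52.2 to 62.5 CPM in knockout with SOX10. In the knockout lines without SOX10 LUM was the highest of them (means 21.9 and 23.3 CPM), followed by COL1A1 (8.13 and 9.10 CPM). With SOX10 the LUM means there were 37.3 and 43.3 CPM. In the knockout lines without SOX10 PDGFRA and COL1A2 had lower means than in control, and COL1A2 was at or near 0 (at most 0.178 CPM in any library). The summed level of 4 endothelial markers was 1.89 to 4.55 CPM in control and knockout cells, 10.6 to 11.0 CPM in control with SOX10 and 28.3 to 35.2 CPM in knockout with SOX10, in these last groups nearly all of it KDR. The summed level of 10 keratinocyte or epithelial markers was 235 to 238 CPM in control, 208 to 212 CPM in control with SOX10, 410 to 456 CPM in the knockout lines and 354 to 414 CPM in these with SOX10, with KRT18 the highest of them in each group, while CDH1 was at or near 0 (at most 0.0416 CPM in any library). The summed level of 7 leukocyte markers was 5.29 to 9.24 CPM in control, control with SOX10 and the knockout lines and 18.3 to 21.7 CPM in knockout with SOX10, nearly all of it LYZ, while PTPRC stayed at or below 0.164 CPM. Mitochondrial transcripts took 0.831% of the counts in control, 0.895% in control with SOX10 and 1.09% to 1.32% in the 4 knockout groups (means). Single libraries overlapped, since control reached 0.996% and control with SOX10 1.03%, while the knockout groups ran from 0.986% to 1.46%. Marker levels thus moved with knockout and with SOX10, and the mean mitochondrial share with knockout, beside each such result, and their part in the results was not tested. Fewer cells with a transcript and less transcript per cell cannot be told apart in these bulk libraries.

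Per unit of transcript length (TPM, a depth-scaled level divided by the annotated exonic length), the genes of the set fell into 3 ranges in control cells. PMEPA1, which encodes a membrane protein that holds back receptor signalling, was highest, at 124 ± 1.78 TPM (SD, n = 3). TGFB1 followed at 67.2 ± 2.04 TPM, and INHBA, TGFBR2, SMAD3, TGFBR1 and SKIL lay between 42.2 and 54.5 TPM (means). SMAD7 stood at 7.05 ± 0.177 TPM, and LTBP1 and LTBP2 were lowest, at 2.10 ± 0.147 and 2.02 ± 0.157 TPM. The genes differed as much in how far they moved. Between its lowest and highest group mean of log2 CPM (pseudocount 2), LTBP2 spanned 8.40-fold, LTBP1 4.84-fold, PMEPA1 4.62-fold and SMAD7 2.36-fold. The other 6 genes spanned 1.34-fold (TGFB1) to 1.87-fold (INHBA).

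**Figure D1:**
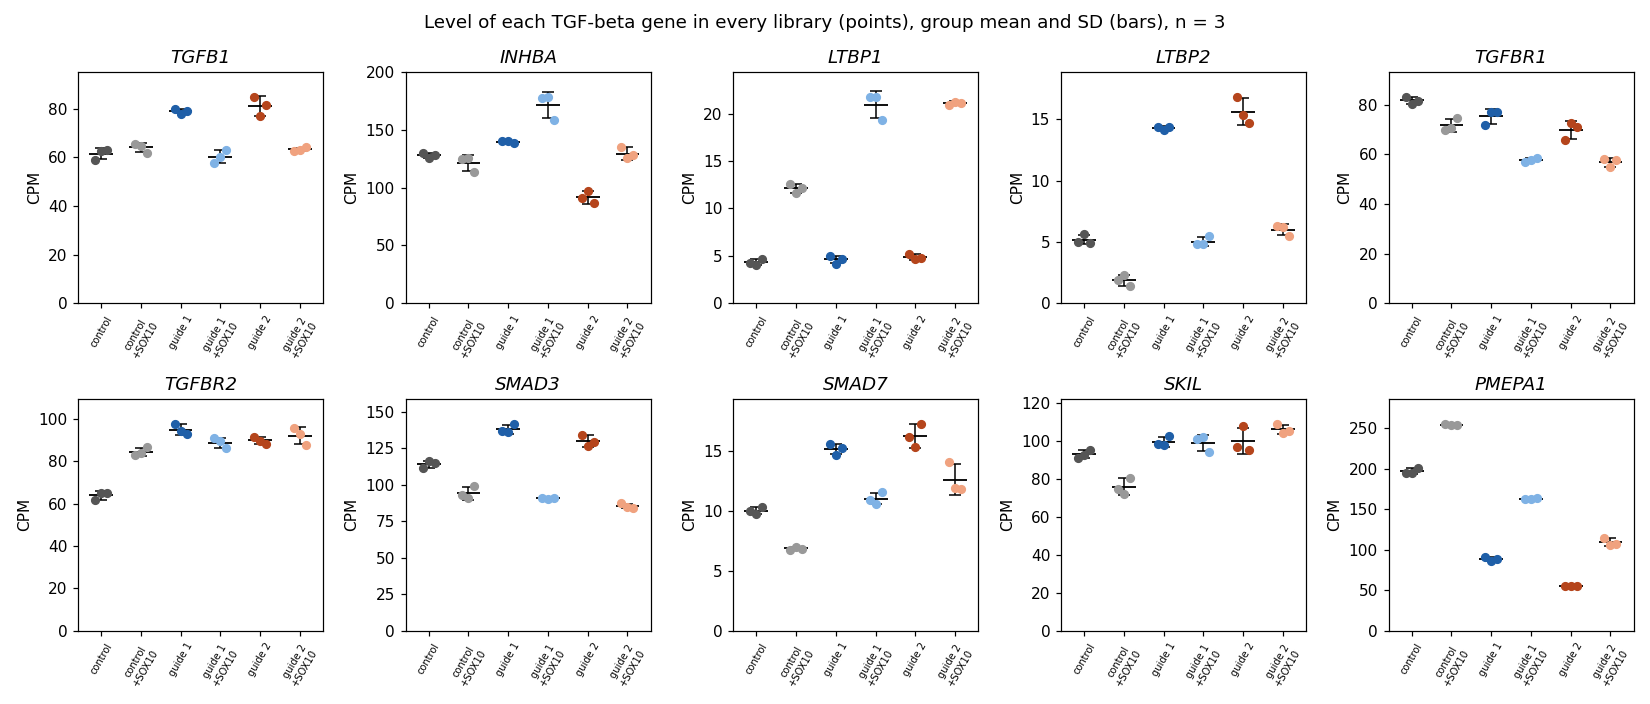
Level in CPM (vertical axes, each starting at 0) of the 10 genes in every library of the 6 groups. Points are libraries and bars are the group mean with its SD (n = 3); LTBP1 is high only in the 3 groups with SOX10, LTBP2 is high in the 2 knockout lines without SOX10, and PMEPA1 runs from about 55.1 CPM with guide 2 to 255 CPM in control with SOX10 (means).

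In the TADA2B knockout lines the level of LTBP2 and PMEPA1 changed more than 2-fold, in opposite directions, and most of the other genes changed by less. With the knockout taken as the mean of both guides, 9 of the 10 genes passed the test at an adjusted p under 0.05 (edgeR's quasi-likelihood test with Benjamini-Hochberg adjustment over 21060 genes, as for every adjusted p below). TGFB1, LTBP2, TGFBR2, SMAD3, SMAD7 and SKIL were higher, INHBA, TGFBR1 and PMEPA1 were lower, and LTBP1 did not pass. The background is high, since 58.1% of all genes tested passed in this comparison, 49.3% of them higher, and the median log2 change was 0.18 over the 10 genes and -0.0090 over all genes. Taken singly, guide 1 changed 9 of the 10 (7 higher, 2 lower) against 52.6% of all genes, and guide 2 changed 9 (6 higher, 3 lower) against 55.9%. Scaling matters for the small changes. With library size alone in place of TMM factors, the median of all genes rose to 0.15, 72.0% of the calls in knockout against control were higher, and 7 of the genes were called higher and 1 lower, because INHBA and TGFBR1 no longer passed and LTBP1 did.

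With SOX10 overexpression LTBP1 and PMEPA1 rose in control cells and in both knockout lines, and LTBP2, TGFBR1, SMAD3 and SMAD7 fell in all of these. In control cells 8 of the 10 genes passed (3 higher, 5 lower), with 34.4% of all genes passing. In the mean of the knockout lines 8 passed as well (3 higher, 5 lower), with 56.2% of all genes passing. The median log2 change over the 10 genes was -0.13 in control cells and -0.18 in knockout cells, against -0.0078 and 0.00065 over all genes. Line by line, 9 passed in guide 1 cells (3 higher, 6 lower; 43.7% of all genes) and 8 in guide 2 cells (3 higher, 5 lower; 48.6% of all genes). The SOX10 effect itself differed between knockout and control cells for 8 of the 10 genes, by the interaction term of the same fit, with 33.3% of all genes passing.

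**Figure D2:**
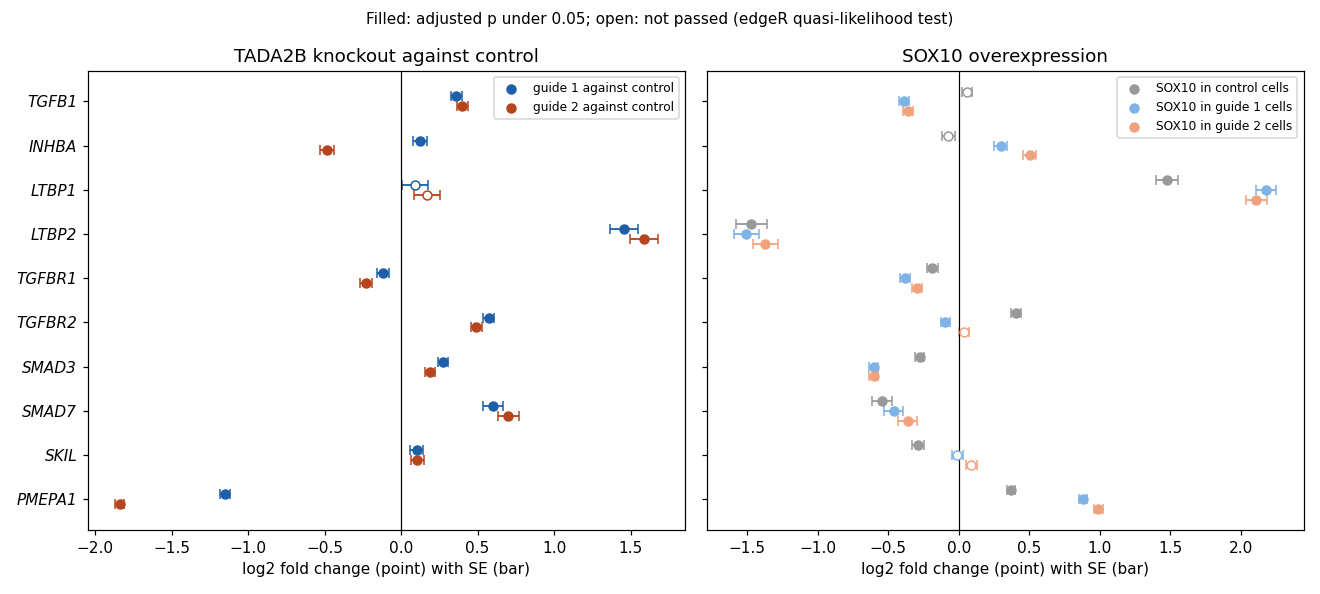
Fitted log2 fold change (horizontal axis) of each gene with its standard error (SE), for each knockout guide against control (left) and for SOX10 overexpression in control, guide 1 and guide 2 cells (right). Filled points passed at an adjusted p under 0.05; LTBP2 and PMEPA1 lie farthest from 0 on the left, and LTBP1 and LTBP2 on the right, on opposite sides.

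Of the ligands, TGFB1 was higher in the knockout and stood near the control level in knockout cells with SOX10. TGFB1 encodes the founding member of the family (ENSG00000105329; hg38 chromosome 19, 41301587 to 41353911). It read 59.0, 62.8 and 62.9 CPM in control, 79.9, 78.1 and 79.1 CPM with guide 1, and 85.0, 77.1 and 81.4 CPM with guide 2. Every knockout library lay above every control library. With SOX10 the guide 1 libraries read 57.7, 60.3 and 63.0 CPM and the guide 2 libraries 62.6, 63.2 and 64.1 CPM, overlapping the control range. Control cells with SOX10 read 65.5, 64.8 and 62.0 CPM, overlapping control. TGFB1 was 1.30-fold higher in the knockout (log2 change 0.38, SE 0.033, adjusted p = 2.53e-13), and SOX10 in knockout cells lowered it by a log2 change of -0.37 (SE 0.026, adjusted p = 5.11e-16). In control cells the SOX10 change was 0.059 (SE 0.038, adjusted p = 0.249). The interaction of -0.43 (SE 0.046) passed at an adjusted p = 3.19e-10. TGFB1 shares 215 exonic bases, 6.64% of its exonic length, with HNRNPUL1 on the opposite strand, and HNRNPUL1, at 482 CPM in control and 339 and 389 CPM in the knockout lines, moved the other way.

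INHBA, which encodes the activin A subunit, was the gene on which the guides disagreed (ENSG00000122641; chromosome 7, 41667168 to 41705834). Its level was 130, 126 and 129 CPM in control, 140, 140 and 139 CPM with guide 1, and 90.9, 97.6 and 86.4 CPM with guide 2. All guide 1 libraries lay above control and all guide 2 libraries below it. The log2 change was 0.13 (SE 0.047, adjusted p = 0.0278) for guide 1, a call lost when any of control replicates 2 and 3 or the guide 1 replicates was left out (adjusted p 0.0557 to 0.106). For guide 2 it was -0.48 (SE 0.047, adjusted p = 5.25e-09), and guide 2 differed from guide 1 by -0.61 (SE 0.047, adjusted p = 1.48e-09). The mean over guides, -0.18, therefore describes neither line. With SOX10 INHBA rose in both, to 178, 179 and 159 CPM in guide 1 cells and 136, 125 and 128 CPM in guide 2 cells, by log2 changes of 0.30 and 0.50 (SE 0.046 and 0.047). Control cells with SOX10 read 125, 126 and 113 CPM, overlapping control, and their change of -0.075 did not pass (adjusted p = 0.241).

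The latent TGF-beta binding proteins LTBP1 and LTBP2 moved differently from each other and had the widest ranges of the set. LTBP1 covalently binds the latent TGF-beta complex and anchors it to the matrix (ENSG00000049323; chromosome 2, 32946972 to 33399509, plus strand). It read 4.26, 4.08 and 4.70 CPM in control, 4.98, 4.18 and 4.72 CPM with guide 1, and 5.22, 4.66 and 4.76 CPM with guide 2, so the 3 groups overlapped. With SOX10 it read 12.6, 11.6 and 12.1 CPM in control cells, 21.7, 21.8 and 19.3 CPM in guide 1 cells and 20.9, 21.3 and 21.1 CPM in guide 2 cells. Every SOX10 library lay above every library without SOX10, and every knockout library with SOX10 lay above every control library with SOX10. In control cells SOX10 raised LTBP1 2.78-fold (log2 change 1.48, SE 0.077, adjusted p = 1.73e-19) and in knockout cells 4.42-fold (2.14, SE 0.052, adjusted p = 8.06e-32). The difference between these effects was 0.67 (SE 0.094, adjusted p = 2.66e-07). The knockout alone changed it by 0.13 (SE 0.073, adjusted p = 0.128), and with library-size scaling by 0.29 (adjusted p = 0.000929).

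LTBP2, a matrix protein of the same family that does not bind latent TGF-beta, rose with the knockout and fell with SOX10 (ENSG00000119681; chromosome 14, 74498170 to 74612378). It read 4.98, 5.66 and 4.95 CPM in control, 14.4, 14.1 and 14.3 CPM with guide 1, and 16.8, 15.3 and 14.7 CPM with guide 2. With SOX10 the levels were 1.87, 2.28 and 1.44 CPM in control cells, 4.80, 4.81 and 5.47 CPM in guide 1 cells, and 6.31, 6.19 and 5.52 CPM in guide 2 cells. All knockout libraries lay above control, and within each background all SOX10 libraries lay below those without it. The knockout raised LTBP2 2.87-fold (log2 change 1.52, SE 0.082, adjusted p = 1.04e-19). SOX10 lowered it by a log2 change of -1.47 in control cells (SE 0.11) and -1.44 in knockout cells (SE 0.063), and the interaction of 0.032 (SE 0.13, adjusted p = 0.884) did not pass. Knockout cells with SOX10 differed from control by 0.082 (SE 0.084, adjusted p = 0.423), although with library-size scaling this was 0.23 (adjusted p = 0.0193).

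The ratio of LTBP1 to LTBP2 per unit length set these opposite movements side by side. It was 1.04 ± 0.144 in control (SD, n = 3), 0.402 ± 0.0316 and 0.388 ± 0.0126 in the knockout lines, 8.36 ± 2.07 in control with SOX10, and 5.20 ± 0.709 and 4.37 ± 0.334 in the knockout lines with SOX10. Control cells thus held the pair at nearly equal levels, knockout cells held more LTBP2, and all groups with SOX10 held more LTBP1.

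The upstream sequence of LTBP1 is shown because this gene had the largest SOX10 response of the set. RefSeq (GRCh38.p14) gives it 3 start sites, and 250 bases before each start were searched on both strands for 5 motifs: the SMAD box CAGAC, its palindrome GTCTAGAC, the AP-1 site TGANTCA, a SOX core AACAAT and the cyclic AMP element TGACGTCA. Capitals mark matches on either strand. The first window (chr2:32946703-32946952, plus strand) ends at the upstream start site and the next (chr2:33134119-33134368, plus strand) at an internal one; neither overlaps an annotated exon of LTBP1.
LTBP1 upstream start: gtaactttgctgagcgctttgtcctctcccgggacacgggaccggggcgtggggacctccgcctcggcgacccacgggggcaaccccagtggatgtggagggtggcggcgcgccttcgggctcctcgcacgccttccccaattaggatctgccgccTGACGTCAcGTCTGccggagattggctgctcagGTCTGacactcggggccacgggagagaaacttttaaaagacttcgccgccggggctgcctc
LTBP1 internal start: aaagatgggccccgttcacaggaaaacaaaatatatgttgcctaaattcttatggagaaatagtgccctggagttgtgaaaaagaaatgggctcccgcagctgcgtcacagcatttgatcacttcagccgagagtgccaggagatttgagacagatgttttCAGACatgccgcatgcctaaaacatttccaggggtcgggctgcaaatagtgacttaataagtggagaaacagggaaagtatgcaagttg
In the first, TGACGTCA stands 94 to 87 bases before the start and is followed by the reverse complement of the SMAD box at 85 to 81 and again at 61 to 57. In the other, a single CAGAC stands 89 to 85 bases before the start. Neither holds AACAAT. Over all 35116 RefSeq windows of this length, 38.0% held a SMAD box, 8.98% the SOX core, 6.57% the AP-1 site, 1.65% the cyclic AMP element and 0.182% the palindrome. Of the 29 windows of the 10 genes, 14 held a SMAD box, 1 the AP-1 site (SMAD3), 2 the cyclic AMP element (LTBP1 and SKIL) and 0 the SOX core. Windows of the same gene can overlap, so a SMAD box of TGFBR1 is counted more than once. A SMAD7 window counted here lies wholly within exons of SMAD7. All hits are matches of letters, and which start was used in A375 cells cannot be read from counts per gene.

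The receptors moved in opposite directions. TGFBR1, the type I receptor kinase (ENSG00000106799; chromosome 9, 99104038 to 99154192), was highest in control, at 83.2, 80.4 and 81.6 CPM. It read 71.8, 77.1 and 77.1 CPM with guide 1, and 65.7, 72.5 and 71.0 CPM in guide 2 cells, all below control. With SOX10 it fell further, to 69.9, 70.7 and 74.8 CPM in control cells, 57.1, 57.8 and 58.5 CPM in guide 1 cells and 58.0, 54.7 and 57.6 CPM in guide 2 cells. Within each background the SOX10 libraries did not overlap those without it. The knockout change was small (log2 change -0.17, SE 0.032, adjusted p = 1.06e-05) and did not pass with library-size scaling (-0.018, adjusted p = 0.648). With that scaling guide 1 alone turned to 0.031. The SOX10 change was -0.19 in control cells (SE 0.037) and -0.34 in knockout cells (SE 0.027), and the difference of -0.15 passed (SE 0.046, adjusted p = 0.00833) but not without control with SOX10 replicate 3 (adjusted p = 0.0537).

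TGFBR2, the ligand-binding type II receptor (ENSG00000163513; chromosome 3, 30606502 to 30694142), was lowest in control, at 61.5, 64.9 and 65.2 CPM. It read 97.7, 94.3 and 93.1 CPM with guide 1, 91.3, 89.8 and 88.4 CPM in guide 2 cells, and 83.1, 83.8 and 86.7 CPM in control with SOX10. In the knockout lines with SOX10 it read 90.9, 89.4 and 86.3 CPM and 95.7, 92.8 and 87.8 CPM. Control stood below all other groups with no overlap, and the other 5 groups overlapped each neighbour in the order of means. Knockout and SOX10 each raised it alone, by log2 changes of 0.53 (SE 0.030, adjusted p = 7.30e-19) and 0.40 (SE 0.035, adjusted p = 6.67e-13). With SOX10 the knockout lines gave opposite signs. In guide 1 cells it fell by a log2 change of -0.097 (SE 0.034, adjusted p = 0.0174) with no overlap of libraries, a call lost without a low-count filter (adjusted p = 0.0750), without guide 1 replicate 1 (-0.070, adjusted p = 0.145) and without guide 1 with SOX10 replicate 3 (-0.069, adjusted p = 0.143). In guide 2 cells the change of 0.036 did not pass (SE 0.034, adjusted p = 0.401), and the difference between the lines was not tested. The mean over the lines, -0.030, did not pass either (SE 0.024, adjusted p = 0.292), and the interaction of this mean with control cells, -0.43, passed (SE 0.042, adjusted p = 3.20e-11). Per unit length the ratio of TGFBR2 to TGFBR1 was 1.14 ± 0.0543 in control, 1.71 ± 0.0234 in control with SOX10, 1.84 ± 0.123 and 1.88 ± 0.125 in the knockout lines, and 2.24 ± 0.0849 and 2.36 ± 0.129 in these with SOX10 (SD, n = 3). A ratio of transcripts is not a ratio of receptors on the cell surface, which was not measured here.

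SMAD3, the signal carrier, was higher in the knockout and lower with SOX10 (ENSG00000166949; chromosome 15, 67063763 to 67195195). It read 111, 116 and 115 CPM in control, 137, 136 and 142 CPM with guide 1, and 134, 126 and 129 CPM in guide 2 cells, with no overlap between knockout and control. With SOX10 it read 92.6, 90.9 and 99.1 CPM in control cells, 90.9, 90.4 and 91.1 CPM in guide 1 cells and 87.3, 84.7 and 84.2 CPM in guide 2 cells. All 9 libraries with SOX10 lay below all 9 without it. The knockout change was 0.23 on the log2 scale (SE 0.028, adjusted p = 2.02e-09), and the SOX10 change was -0.28 in control cells (SE 0.032) and -0.61 in knockout cells (SE 0.023). The interaction was -0.33 (SE 0.039, adjusted p = 7.27e-09).

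The genes that answer and restrain SMAD signalling did not move as a block. SMAD7, which recruits ubiquitin ligases to the receptor, was higher in the knockout and lower with SOX10 (ENSG00000101665; chromosome 18, 48919853 to 48952052). It read 9.97, 9.79 and 10.3 CPM in control, 15.6, 14.7 and 15.3 CPM with guide 1, and 16.2, 15.4 and 17.3 CPM in guide 2 cells. With SOX10 it read 6.73, 7.04 and 6.85 CPM in control cells, 10.9, 10.6 and 11.6 CPM in guide 1 cells and 14.1, 12.0 and 11.8 CPM in guide 2 cells. All knockout libraries were above control, and in each background the SOX10 libraries were below those without it. SMAD7 was 1.57-fold higher in the knockout (log2 change 0.65, SE 0.060, adjusted p = 2.23e-12). SOX10 changed it by -0.55 in control cells (SE 0.073) and by -0.41 in knockout cells (SE 0.047), and the interaction of 0.13 (SE 0.087, adjusted p = 0.261) did not pass.

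SKIL, which encodes the SMAD co-repressor SnoN, moved least with the knockout (ENSG00000136603; chromosome 3, 170357678 to 170396835). It read 90.8, 92.7 and 95.0 CPM in control, 98.4, 97.7 and 103 CPM with guide 1, and 96.9, 108 and 95.0 CPM with guide 2. Guide 2 overlapped control. The mean knockout change was 0.10 (SE 0.036, adjusted p = 0.0134), a call lost without control replicate 1 (0.087, adjusted p = 0.0807). Guide 2 alone gave 0.11 with replicate 2, the library that stood apart, and 0.047 without it (adjusted p = 0.312), and guide 1 alone gave 0.10, which did not pass with the replicate number as a block (adjusted p = 0.0609). In control cells with SOX10 SKIL read 74.8, 72.2 and 80.6 CPM, below all control libraries (log2 change -0.29, SE 0.042, adjusted p = 6.29e-07). In the knockout lines with SOX10 it read 101, 102 and 93.9 CPM and 109, 104 and 105 CPM, overlapping the lines without SOX10. There the SOX10 change was 0.039 (SE 0.029, adjusted p = 0.262), and it was 0.073 without guide 2 replicate 2 (adjusted p = 0.0129).

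PMEPA1 fell with the knockout and rose with SOX10 (ENSG00000124225; chromosome 20, 57648392 to 57711536, minus strand). Its levels were 194, 195 and 201 CPM in control, 91.4, 86.6 and 88.2 CPM with guide 1, and 55.5, 55.2 and 54.5 CPM in guide 2 cells. With SOX10 they were 255, 254 and 255 CPM in control cells, 162, 163 and 164 CPM in guide 1 cells and 115, 106 and 107 CPM in guide 2 cells. The 6 groups stood in the order control with SOX10, control, guide 1 with SOX10, guide 2 with SOX10, guide 1 and guide 2, and no neighbours in this order overlapped. The fall was 2.22-fold with guide 1 (log2 change -1.15, SE 0.030) and 3.58-fold with guide 2 (-1.84, SE 0.031), and the guides differed by -0.69 (SE 0.031, adjusted p = 1.07e-20). SOX10 raised PMEPA1 1.29-fold in control cells (log2 change 0.37, SE 0.029, adjusted p = 4.22e-14) and 1.91-fold in knockout cells (0.93, SE 0.021, adjusted p = 1.05e-32). The interaction was 0.56 (SE 0.036, adjusted p = 1.26e-16). NKILA, transcribed from the opposite strand over 343 exonic bases (6.10% of those of PMEPA1), stood at 1.22 to 4.55 CPM over all libraries, far below PMEPA1.

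PMEPA1 has 4 start sites in RefSeq (GRCh38.p14), and the window before the most downstream of them (chr20:57690687-57690936, minus strand, read in the direction of the gene) is shown because it overlaps no annotated exon and holds a SMAD box.
PMEPA1 downstream start: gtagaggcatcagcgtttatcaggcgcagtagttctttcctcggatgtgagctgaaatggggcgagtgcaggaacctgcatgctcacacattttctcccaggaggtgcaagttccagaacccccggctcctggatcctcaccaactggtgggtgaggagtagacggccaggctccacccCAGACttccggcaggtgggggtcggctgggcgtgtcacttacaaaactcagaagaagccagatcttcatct
The capitals mark CAGAC, 71 to 67 bases before the start, and no other of the 5 motifs was found there. SMAD boxes stood in 2 of the 4 windows of this gene, and AACAAT in 0 of them.

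**Figure D3:**
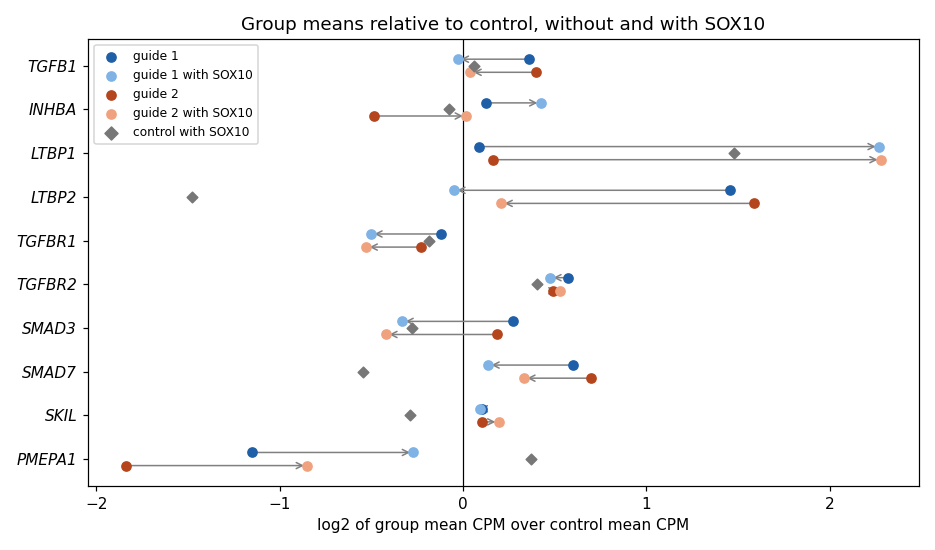
Log2 ratio of each group's mean CPM to the control mean (horizontal axis; 0 is control). Arrows run from each knockout line to the same line with SOX10, and diamonds mark control cells with SOX10; the arrows of TGFB1 and LTBP2 end near 0, those of LTBP1 start near 0 and end beyond 2, and those of PMEPA1 run toward 0 without reaching it.

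Set against control, knockout cells with SOX10 differed gene by gene in how close they came. Of the 10 genes 8 passed (5 higher, 3 lower), with 57.9% of all genes passing, 51.9% of them higher and 73.5% with library-size scaling. TGFB1 and LTBP2, both higher in the knockout, no longer differed from control by the test, with changes of 0.0054 (SE 0.033, adjusted p = 0.904) and 0.082. With library-size scaling TGFB1 did pass, at 0.15 (adjusted p = 9.23e-05). SMAD7 stayed higher (0.24, SE 0.061, adjusted p = 0.000873) and PMEPA1 stayed lower (-0.56, SE 0.025, adjusted p = 1.89e-22), each less far from control than without SOX10. SMAD3 passed to the other side of control (-0.37, SE 0.028, adjusted p = 2.86e-15). TGFBR1 moved farther below control (-0.51, SE 0.032), LTBP1 far above it (2.27, SE 0.070), and TGFBR2 was higher than control by 0.50 (SE 0.030), against 0.53 without SOX10. INHBA, lower in the knockout by the mean over guides, was higher here by that mean (0.22, SE 0.041, adjusted p = 6.19e-05). It averaged 172 CPM in guide 1 and 130 CPM in guide 2 cells with SOX10, and the guide 2 libraries overlapped control. These comparisons use the same control libraries as the knockout comparison.

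Within SOX10-overexpressing cells the knockout again changed 9 of the 10 genes (6 higher, 3 lower), with 55% of all genes passing, 51.4% of them higher and 74.5% with library-size scaling. LTBP2 was higher by 1.55 (SE 0.099), LTBP1 by 0.80 (SE 0.060), SMAD7 by 0.78 (SE 0.063) and SKIL by 0.43 (SE 0.036), and PMEPA1 was lower by a log2 change of -0.93 (SE 0.024). TGFB1 did not pass (-0.053, SE 0.032, adjusted p = 0.166) and turned to 0.090 with library-size scaling (adjusted p = 0.0151). SMAD3 changed by -0.097 (SE 0.028, adjusted p = 0.00313), which turned to 0.047 with library-size scaling and did not pass without control with SOX10 replicate 3 (adjusted p = 0.0996).

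With TMM scaling the guides gave 9 of the 10 genes the same sign, INHBA being the exception, and 3 genes differed between them by the test, all lower with guide 2, with 8.74% of all genes passing, 30.4% of them higher and 42.2% with library-size scaling. These were INHBA and PMEPA1, given above, and TGFBR1 (-0.11, SE 0.037, adjusted p = 0.0488), whose call was lost in 8 of the 13 alternatives tried for it. SOX10 transcript was also lower with guide 2 than with guide 1, by a log2 change of -0.94 (SE 0.040, adjusted p = 3.68e-18). Its part in the differences between guides was not tested.

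The wider pathway changed in both directions. Of 112 further genes in 7 role lists, 100 were tested, and 39 were higher and 46 lower in the knockout, 85% in all against 58.1% of all genes. With library-size scaling this split turned to 49 higher and 29 lower. The background is higher among well expressed genes. Of 14194 genes with a mean of at least 1 CPM, 4938 were higher and 5086 lower in the knockout. With that filter 84.9% of 93 list genes passed. With SOX10 in knockout cells 38 of the 100 list genes were higher and 53 lower, against 56.2% of all genes changed. With the filter at 1 CPM, 4781 of 14194 genes were higher and 4842 lower there, and 90.3% of 93 list genes passed. In control cells 28 were higher and 38 lower with SOX10, against 34.4%. At 1 CPM this background was 3295 higher and 3270 lower, and 68.8% of 93 list genes passed. By list, the share that passed in the knockout ran from 69.2% (SMADs and nuclear partners) to 92.9% (latency and activation), against 58.1% of all genes. With SOX10 in knockout cells it ran from 75% (other receptors and co-receptors) to 100% (direct and early response genes), against 56.2%.

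Among 13 ligands and antagonists tested, 6 rose and 5 fell in the knockout. TGFB2, a second TGF-beta isoform, rose from 2.10 ± 0.416 CPM in control to 10.1 ± 0.890 and 11.5 ± 0.151 CPM in the knockout lines (SD, n = 3; log2 change 2.35, SE 0.10), and stayed at 8.86 and 9.96 CPM with SOX10. NOG, an antagonist of bone morphogenetic proteins (BMPs), rose by 2.53 (SE 0.28) with group means of at most 1.49 CPM, and BMP7 fell by a log2 change of -2.05 (SE 0.14). With SOX10 in knockout cells 3 rose and 8 fell. BMP7 rose by 2.53 (SE 0.11) and NOG fell by a log2 change of -1.70 (SE 0.19).

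Of 14 genes of latency and activation, 5 rose and 8 fell in the knockout, with a median of -0.16, and with library-size scaling 5 rose and 5 fell. ITGB8, the integrin chain that releases latent TGF-beta, fell from 223 ± 6.04 CPM to 62.0 ± 0.609 and 30.8 ± 0.682 CPM (SD, n = 3; log2 change -2.35, SE 0.030). ITGB3, another integrin chain of this kind, fell by a log2 change of -1.85 (SE 0.046), and FBN2, a fibrillin of the matrix, rose by 1.83 (SE 0.18). SOX10 in knockout cells raised THBS1, an activator of latent TGF-beta, by 1.61 (SE 0.037) and ITGB8 by 1.48 (SE 0.026). ITGAV, the integrin partner chain of ITGB8 and ITGB3, rose by 1.09 (SE 0.024). These were among 4 genes that rose and 9 that fell.

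Of 12 other receptors and co-receptors, 4 rose and 7 fell in the knockout, and 6 rose and 3 fell with SOX10 in knockout cells. With library-size scaling the knockout split was 5 and 5. BAMBI, a pseudoreceptor that blocks signalling, fell by a log2 change of -2.74 (SE 0.057) in the knockout and rose by 1.49 (SE 0.053) with SOX10. TGFBR3, the co-receptor betaglycan, rose by 0.89 in the knockout (SE 0.066). ACVR1C, an activin type I receptor, rose by 2.63 with SOX10 (SE 0.19) with group means of at most 1.73 CPM. ACVRL1 passed in both comparisons at levels of at most 0.205 CPM in any group mean, too low for a fold to be given.

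Of 13 SMADs and nuclear partners, 1 rose and 8 fell in the knockout, with a median of -0.17, but with library-size scaling 5 rose and 2 fell, so the direction of this list depends on the scaling. TGIF1, a SMAD co-repressor, fell by a log2 change of -1.03 (SE 0.042) and the inhibitory SMAD6 by -0.88 (SE 0.067), while EP300, an acetyltransferase that SMADs recruit, fell by a log2 change of -0.21 (SE 0.027), which did not pass with library-size scaling. With SOX10 in knockout cells 5 rose and 7 fell. SMAD9, which carries BMP signals, rose by 1.55 (SE 0.11), and the other 2 changes named by the rule were SMAD6 at -0.33 and TGIF1 at -0.21.

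Of 10 negative regulators, 3 rose and 6 fell in the knockout, and with library-size scaling 4 rose and 2 fell, so this direction turns too. LDLRAD4, which binds SMADs at endosomes, passed as lower in the knockout and as higher with SOX10 in knockout cells, at 0.315 CPM in control, 0.0806 and 0.0698 CPM in the knockout lines and 0.941 and 1.01 CPM in these with SOX10 (means), and its level in the knockout lines is too low for a fold to be given. The ubiquitin ligase SMURF2 changed by -0.23 (SE 0.025) and the deubiquitinase USP15 by 0.21 (SE 0.030). With SOX10 in knockout cells 6 rose and 3 fell, among them the ubiquitin ligase NEDD4L, higher by 0.72 (SE 0.020).

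Most of the direct and early response genes rose in the knockout and most fell with SOX10. Of 19 tested, 11 rose and 4 fell in the knockout (median 0.29), where 28.6% of all genes were higher and 29.5% lower. With SOX10 in knockout cells all 19 passed, 5 of them higher and 14 lower (median -0.39), with 28.1% of all genes lower. In control cells with SOX10 3 rose and 11 fell, with 17.2% of all genes lower. CCN2, a matricellular protein, rose by 1.42 in the knockout (SE 0.042) and by a further 1.80 with SOX10 (SE 0.032), to 592 and 885 CPM from 77.7 CPM in control. NEDD9, a scaffold of adhesion signalling, did the reverse in the knockout, at -1.93 (SE 0.051), and rose by 2.69 with SOX10 (SE 0.043).

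Of 19 matrix and mesenchymal genes, 9 rose and 8 fell in the knockout and 9 rose and 9 fell with SOX10 in knockout cells. POSTN rose by 4.10 in the knockout (SE 0.21) from 0.165 CPM, and TAGLN by 3.91 (SE 0.073), from 2.37 ± 0.194 CPM to 28.7 ± 0.757 and 44.4 ± 2.82 CPM (SD, n = 3). COL3A1 passed in both comparisons with group means of at most 0.357 CPM, too low for a fold to be given. IGFBP3 rose by 2.01 with SOX10 (SE 0.024) and COL5A1 fell by a log2 change of -1.89 (SE 0.033). POSTN, COL3A1 and COL1A1 are also among the fibroblast markers given above.

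**Figure D4:**
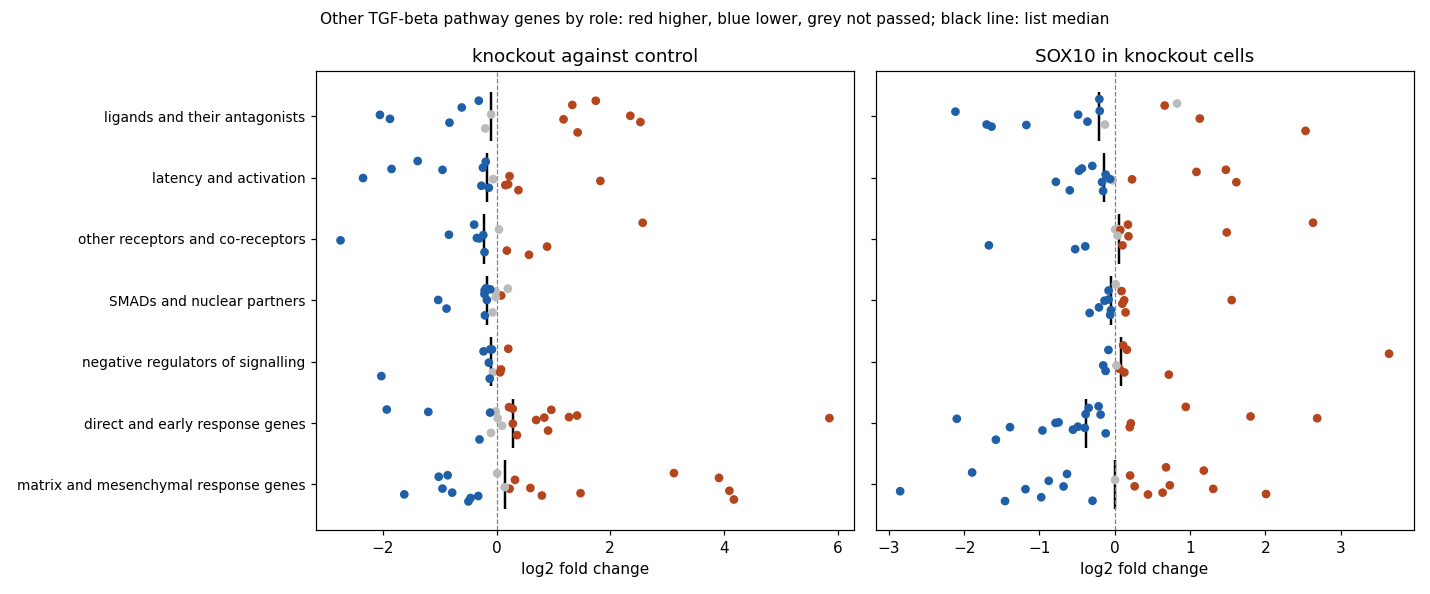
Log2 fold change (horizontal axis) of the other pathway genes tested, 1 point per gene, by role list, in knockout against control (left) and with SOX10 in knockout cells (right). Red points passed as higher, blue as lower and grey did not pass, and the black line is the list median; the direct and early response genes lie mostly right of 0 on the left and mostly left of 0 on the right.

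The genes most like the 3 widest-ranging members were read from Pearson's r of log2 CPM (pseudocount 2) over the 18 libraries, among 11069 genes with a mean of at least 5 CPM. The libraries fall into the same 6 groups for every gene, so high values are common and carry no test. PMEPA1 was most like HLA-DRA, CIITA and HLA-DMA (r = 0.999, 0.999 and 0.998), of which CIITA is the transactivator of MHC class II genes and the others are such genes. CIITA averaged 106 CPM in control, 192 CPM with SOX10, 16.3 and 5.99 CPM in the knockout lines and 66.8 and 27.9 CPM in these with SOX10, the same order of groups as PMEPA1. LTBP2 was most like DOCK2, VDR and MLKL (r = 0.991, 0.990 and 0.990), and LTBP1 most like ATP7A, LGALSL and TMEM45A (r = 0.990, 0.988 and 0.984). ATP7A, a copper transporter, averaged 20.9 CPM in control, 42.0 CPM in control with SOX10 and 56.6 and 65.9 CPM in the knockout lines with SOX10, and stayed at 23.4 and 23.1 CPM in the lines without it.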

How the data were processed

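Unnormalized gene counts for 18 libraries were deposited in 1 table. The tools were HISAT2 and HTSeq, with build hg38, per the submitters' processing notes; versions, annotation and strand setting are not stated in the sources used, so reads of overlapping genes on opposite strands cannot be told apart. The labels name a stranded mRNA kit. Counts were tested in R 4.3.3 with edgeR 4.0.16 (filterByExpr, TMM, robust quasi-likelihood, 6 group means, all 18 libraries, 21060 genes, adjusted p under 0.05). CPM uses effective library sizes and TPM uses GENCODE 29 exonic lengths. The script was tested on simulated data. Alternatives were RLE and library-size scaling, DESeq2 1.42.0, other filters, only the compared groups, a replicate block and each library left out. The members, role lists and tests were chosen with earlier results of these data known. The rule for naming took all members, the 3 largest passing changes of each role list per comparison, and the 3 genes most like each of the 3 widest-ranging members. 1 gene that this rule names is not reported here. No table column was left unused.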

Additional observations from a re-analysis of the deposited data

Results flagged for a closer look

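For 8 of the 10 genes the SOX10 effect differed between knockout and control cells by the interaction term, with 33.3% of all genes passing that test (edgeR's quasi-likelihood test). The log2 difference, knockout minus control cells, was -0.43 for TGFB1, 0.48 for INHBA, 0.67 for LTBP1, -0.15 for TGFBR1, -0.43 for TGFBR2, -0.33 for SMAD3, 0.33 for SKIL and 0.56 for PMEPA1. SOX10 transcript itself rose by 0.35 in control cells and by 2.15 in knockout cells, so the compared SOX10 steps were of unequal size, and the part of this in the differences was not tested. The genes do not share a pattern here: INHBA and TGFB1 passed only in knockout cells, SKIL only in control cells, and LTBP1, PMEPA1, SMAD3 and TGFBR1 in both. TGFBR2 passed as higher in control cells and as lower in guide 1 cells (-0.097), and did not pass in guide 2 cells (0.036) or in the mean of the lines.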

How the results depend on the processing

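Counts of changed genes among the 10 stayed within 1.5 times under each of the 25 settings. Of 110 single values 86 kept direction and side of the threshold throughout, and 55 of 1700 alternatives did not. Library-size scaling turned TGFBR1 with guide 1 to 0.031, and within SOX10 cells TGFB1 to 0.090 and SMAD3 to 0.047. Without a low-count filter SKIL with SOX10 in guide 1 cells was 0.0023. Leaving out single libraries gave -0.025 to 0.024 for TGFB1 in knockout with SOX10 against control, -0.12 to 0.21 for the LTBP2 interaction, -0.053 to 0.040 for SKIL between guides and -0.032 to 0.032 for SKIL with SOX10 in guide 1 cells; the causes were not tested. Deviations from the group mean had a mean r of 0.055 between same-number libraries of different groups (-0.19 to 0.34). Between different numbers the mean r was -0.028 (-0.40 to 0.37). Of the 18 libraries 14 were nearer their own number, while the labels state no pairing by number. The replicate block gave 12322 changed genes in knockout against control, against 12230 without it, and 2036 against 1841 between guides. LTBP1, LTBP2 and SMAD7 are the shallowest, at 98 to 1713 counts per library.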
